A study of Mus musculus with 21 samples.

Results

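The genes of class I antigen presentation were followed in endothelial cells of mouse mammary tumours: the heavy chains H2-K1 and H2-D1, their light chain B2m, the peptide transporter Tap1 and Tap2, the loading factor Tapbp, the immunoproteasome subunits Psmb8, Psmb9 and Psmb10, and the class I transactivator Nlrc5. They were taken by symbol, and all 10 were found among the 45706 genes of the deposited table and were tested among the 13503 genes that passed a filter on low values. Total RNA was sequenced from cells that express CD31, sorted from E0771.lmb tumours (a mouse mammary cancer line) 14 to 16 days after injection of the tumour cells into adult mice. The 11 WT libraries came from 9 tumours of wild-type mice. The 10 KO libraries came from 8 tumours of Shb iECKO mice (Shb flox/flox; Cdh5-CreERt2), in which tamoxifen, given before the tumours grew, switches on Cre in cells that use the Cdh5 promoter, which is active in endothelium, so that Shb, an adaptor protein of tyrosine kinase receptors, is deleted. The protocol mentions another mouse line as well, Shb ICKO (Shb flox/flox; Vav1-cre), to which the labels assign no sample, and an isolation of CD45+ cells with magnetic beads ahead of the CD31 sort. By column name the libraries fell into 4 experiments, with 3 WT and 2 KO in experiment 1, 3 and 4 in experiment 2, 2 and 2 in experiment 3, and 3 and 2 in experiment 4. The sample labels instead list 3 KO in experiment 2 and 3 KO in experiment 4. The labels do not say which libraries share a tumour, so p-values measure in part the spread between samples of one tumour.

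Nucleated cells display fragments of their own proteins on class I molecules, where CD8 T cells inspect them. The proteasome cuts the proteins, with the immunoproteasome subunits replacing constitutive ones under interferon. TAP carries the peptides into the endoplasmic reticulum, and tapasin, the product of Tapbp, holds an empty heavy chain with B2m at the transporter until a peptide fits. Endothelial cells carry class I constitutively and raise it under interferon, and Nlrc5 acts at the SXY module of class I promoters.

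Of the 10 genes, 7 lie on chromosome 17 in the major histocompatibility complex and its flank (GRCm38, GENCODE annotation). Tapbp occupies chr17:33915899-33929292 and H2-K1 chr17:33996017-34000347. Psmb9, Tap1, Psmb8 and Tap2 follow one another between chr17:34181987 and chr17:34216321, and H2-D1 lies at chr17:35262730-35267499. B2m is on chromosome 2 (chr2:122147686-122153083), and Nlrc5 and Psmb10 are on chromosome 8 (chr8:94434356-94527272 and chr8:105935735-105938444). The annotated Tap1 and Psmb9 genes overlap by 212 bases on opposite strands, and whether the counting used strand is not given in the sources used here. H2-D1 shared 35 of its 1953 windows of 150 bases (1.79%) exactly with another gene, H2-Q1, and the other 9 genes shared none, so reads of H2-D1 could in small part be split.

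The bases upstream of the RefSeq start (GRCm38.p6) are shown for the heavy chains, B2m and the stretch between the divergent Tap1 and Psmb9 starts. NF-kB, interferon regulatory factors and the SXY module are known to act on class I genes through such bases. Not every window holds all of their letters. RefSeq promoter entries were matched for 8 of the 10 genes. Capitals mark matches on either strand, a match to the other strand being printed as its reverse complement, to 6 patterns chosen after the sequences were seen: GGGATTCCC (an NF-kB pattern), GAAANNGAA and GAANNGAAA (interferon response element patterns), TTCNNNGAA (a STAT pattern), TGACG (the core of a cyclic AMP response element, as in the X2 box) and CCAAT (as in an inverted Y box). The windows cover chr17:34000348-34000597 on the minus strand, chr17:35262844-35263093 and chr2:122147437-122147686 on the plus strand, and chr17:34187331-34187555 written on the plus strand, in which Tap1 is read. RefSeq and GENCODE place some starts differently. The H2-D1 window lies inside the H2-D1 gene as GENCODE annotates it, and the Tap1 and Psmb9 window inside the GENCODE Psmb9 gene.
H2-K1: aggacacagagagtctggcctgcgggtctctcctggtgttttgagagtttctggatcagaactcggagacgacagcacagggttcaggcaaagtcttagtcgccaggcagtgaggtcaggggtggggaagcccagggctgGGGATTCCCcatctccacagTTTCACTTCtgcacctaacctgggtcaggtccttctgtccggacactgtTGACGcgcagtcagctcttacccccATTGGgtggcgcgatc
H2-D1: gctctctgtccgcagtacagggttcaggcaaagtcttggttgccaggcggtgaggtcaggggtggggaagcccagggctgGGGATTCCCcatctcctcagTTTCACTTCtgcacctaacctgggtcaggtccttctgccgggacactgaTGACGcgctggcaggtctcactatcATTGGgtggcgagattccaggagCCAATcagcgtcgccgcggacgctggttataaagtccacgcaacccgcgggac
B2m: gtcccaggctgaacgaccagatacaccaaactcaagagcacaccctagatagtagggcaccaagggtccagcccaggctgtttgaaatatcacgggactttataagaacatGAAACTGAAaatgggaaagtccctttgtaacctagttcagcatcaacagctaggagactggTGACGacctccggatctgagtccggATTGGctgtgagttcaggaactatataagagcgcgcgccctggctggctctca
Tap1 and Psmb9: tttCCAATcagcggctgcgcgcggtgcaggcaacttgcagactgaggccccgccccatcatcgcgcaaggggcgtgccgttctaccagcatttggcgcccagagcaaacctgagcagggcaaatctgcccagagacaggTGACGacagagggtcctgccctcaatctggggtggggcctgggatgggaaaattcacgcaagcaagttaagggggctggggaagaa
H2-K1 and H2-D1 held the same NF-kB letters, GAANNGAAA, TGACG and CCAAT in the same order and on the same strands, and H2-D1 held CCAAT at a further place. With the NF-kB letters of both set under each other, 166 of 190 positions (87.4%) were identical, and the RefSeq starts lay 60 bases apart. B2m held GAAANNGAA, TGACG and CCAAT but not the NF-kB letters. The stretch between Tap1 and Psmb9 held TGACG and CCAAT but no match to the other patterns. These lay 86 and 222 bases before the Tap1 start, against 41 and 16 bases before the H2-K1 start. No matches overlapped in these 4 windows. Over 27025 promoters, the 250 bases before the start held GGGATTCCC in 0.311%, GAAANNGAA in 7.16%, GAANNGAAA in 6.34%, TTCNNNGAA in 7.18%, TGACG in 17.9% and CCAAT in 34.5%. A match describes letters and was not tested as a site.

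Levels are given in TPM, the share of a gene among the transcripts of its library after correction for length. Shb, the targeted gene, did not follow the KO label in every experiment. In experiment 1 it stood at 36.3 and 52.7 TPM in KO and at 34.9, 17.3 and 74.3 TPM in WT. In experiment 3 it stood at 13.0 and 40.4 TPM in KO and at 31.8 and 18.3 TPM in WT. In these 2 experiments the groups overlapped and the mean was not lower in KO. In experiment 2 it stood at 14.3, 34.9, 11.04 and 11.02 TPM in KO and at 40.7, 46.1 and 64.3 TPM in WT, and in experiment 4 at 6.00 and 7.99 TPM in KO and at 30.5, 23.4 and 29.3 TPM in WT. There every KO library was below every WT library. Both KO libraries of experiment 1, KO replicate 2 of experiment 2 and KO replicate 2 of experiment 3 lay above the WT median of 31.8 TPM. Over all libraries the log2 difference of Shb was -0.91 (SE 0.33; limma p = 0.0107 before adjustment and 0.820 after it). Which exons the floxed allele removes is not given in the labels, so a gene total may include transcript that remains. KO and WT below mean the libraries labelled so.

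The 15 endothelial markers summed to between 1930 and 12932 TPM in KO and between 664 and 13627 TPM in WT, and Pecam1, which encodes CD31, ranged from 95.04 to 1960 TPM. The 3 libraries lowest in Pecam1 were WT replicate 2 of experiment 4, KO replicate 2 of experiment 4 and WT replicate 1 of experiment 2, at 95.04 to 461 TPM against 710 to 1960 TPM in the other 18. The header is the same in 2 columns, that of KO replicate 3 of experiment 2, and they are called 3a and 3b here. No column names KO replicate 3 of experiment 4. The summed level of 17 leukocyte markers ran from 134 to 495 TPM in KO and from 176 to 7686 TPM in WT. Ptprc, one of them, ranged from 0 to 28.7 TPM in KO (median 6.21) and from 2.68 to 109 TPM in WT (median 8.14). All 17 markers had lower estimates in KO, beside 64.0% of all genes tested, and 13 had an unadjusted p under 0.05 in limma, beside 5.88% of all genes, with 0 passing after adjustment. Of 8 fibroblast and pericyte markers tested 8 had lower estimates, 5 with an unadjusted p under 0.05, and of 15 endothelial markers 14 had higher estimates, 0 with an unadjusted p under 0.05. None of the leukocyte or endothelial markers was at 0 in every library. The part of other cells in the levels of the class I genes was not tested beyond fits with a marker mean as covariate, and in bulk samples fewer cells of a type and less RNA per cell cannot be told apart.

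Transcripts of the class I molecule itself were among the most abundant in these cells. B2m averaged 3340 ± 2059 TPM in WT (SD, n = 11) and ranked 19th of all genes by the WT mean. H2-D1 at 1446 ± 546 TPM and H2-K1 at 1384 ± 513 TPM ranked 43rd and 44th. The 3 genes together made up 0.211% to 1.06% of the TPM of a library. Tapbp came next at 282 ± 119 TPM in WT, followed by Tap1 at 154 ± 56.6 TPM and Psmb8 at 125 ± 60.8 TPM. Nlrc5 stood at 103 ± 52.9 TPM and Tap2 at 95.5 ± 23.6 TPM, both in WT. Psmb9 at 61.4 ± 23.1 TPM and Psmb10 at 46.1 ± 25.4 TPM were the lowest of the 10 genes in WT.

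The order of levels on log2(TPM + 1), over all 21 libraries, had 4 steps beyond 1 SD of the within-library differences. B2m exceeded H2-D1 by 0.90 ± 0.77 (SD) and in 18 of 21 libraries, and H2-K1 exceeded Tapbp by 2.31 ± 0.40 and in all 21. Tapbp stood 0.77 ± 0.44 above Tap1, and Tap2 stood 0.63 ± 0.32 above Psmb9, each in 20 of 21 libraries. The heavy chains did not differ beyond their spread, with H2-D1 above H2-K1 in 10 of 21 libraries. In the run of Tap1, Nlrc5, Psmb8 and Tap2 each gene was within 1 SD of the next, and Psmb9 was within 1 SD of Psmb10. Only neighbours were compared, so the run does not say that genes farther apart in it, such as Tap1 and Tap2, were alike.

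**Figure D1:**
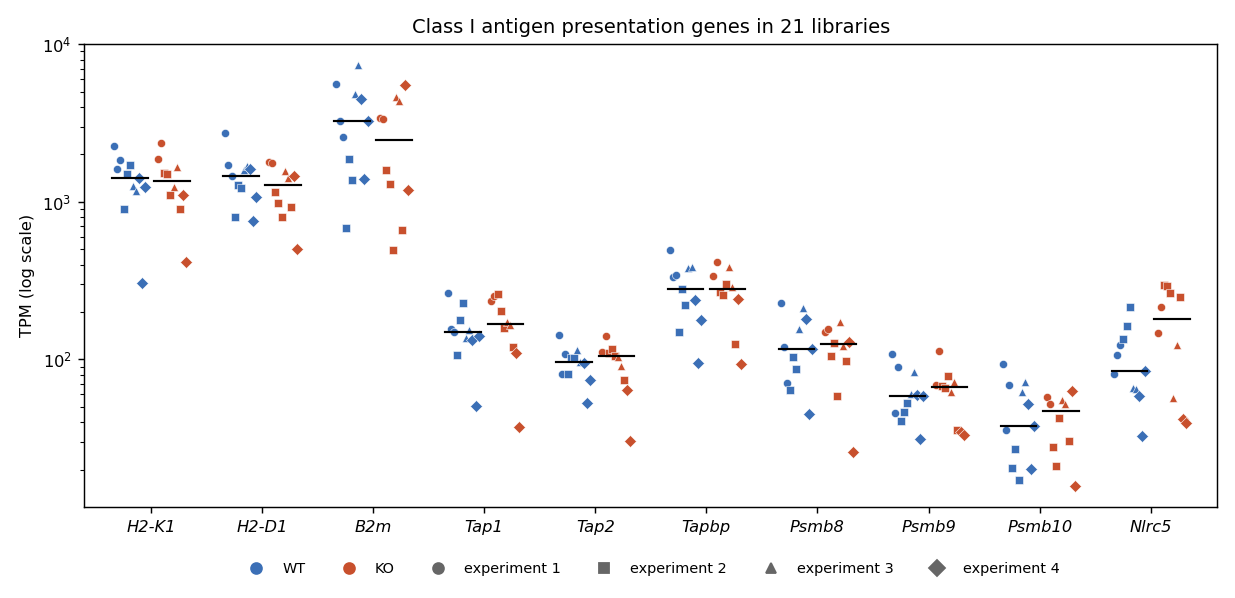
TPM of the 10 genes in each of the 21 libraries on a log axis, with WT in blue, KO in orange, the symbol giving the experiment and a black bar the median of each genotype. B2m, H2-D1 and H2-K1 stand above the rest in most libraries, and the WT and KO points of every gene overlap.

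The design asks whether class I presentation genes differ with the Shb genotype, and libraries labelled KO and WT were compared beside an experiment term in limma, a linear model fitted to log2(TPM + 1) of all 13503 genes, with Benjamini-Hochberg adjustment over them and a threshold of 0.05. None of the 10 genes passed, where 1 of 13503 genes did (0.00741%). Their adjusted p-values ran from 0.824 to 0.996. At an unadjusted p under 0.05 the count was also 0 of 10, beside 5.88% of all genes. The estimates were higher in KO for 4 genes and lower for 6, and their median of -0.02 lay beside -0.11 over all genes tested. With the leukocyte marker mean as a covariate the estimates were -0.41 for H2-K1, -0.30 for H2-D1, -0.39 for B2m, -0.21 for Tap1, -0.24 for Tap2, -0.15 for Tapbp, -0.24 for Psmb8, -0.04 for Psmb9, -0.03 for Psmb10 and 0.08 for Nlrc5. With the endothelial mean they ran from -0.36 for B2m to 0.36 for Nlrc5, and 0 of the 10 genes passed in either fit.

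The heavy chains and B2m showed the following levels by genotype. H2-K1 ranged from 415 to 2373 TPM in KO (median 1366, n = 10) and from 304 to 2263 TPM in WT (median 1410, n = 11), a difference of -0.01 on the log2(TPM + 1) scale (SE 0.26, 95% interval -0.56 to 0.53). H2-D1 ranged from 501 to 1795 TPM in KO (median 1282) and from 755 to 2748 TPM in WT (median 1457), a difference of -0.19 (SE 0.22, 95% interval -0.63 to 0.26). The genotypes of both heavy chains overlapped over all libraries, while in experiment 3 both KO libraries were below both WT libraries in H2-D1. In that experiment 29.9% of all genes did not overlap between KO and WT. B2m ranged from 492 to 5504 TPM in KO (median 2475) and from 686 to 7384 TPM in WT (median 3245), a difference of -0.26 (SE 0.30, 95% interval -0.89 to 0.37). H2-D1 and B2m each had a lower KO mean of log2(TPM + 1) in all 4 experiments. The log2 differences ran from -0.35 to -0.09 for H2-D1 and from -0.42 to -0.09 for B2m. In TPM, the B2m mean of experiment 4 was higher in KO, at 3347.2 TPM against 3051.5 TPM in WT. Over all libraries 64.0% of all genes tested had lower estimates in KO, and no share lower in every experiment was taken. Neither H2-D1 nor B2m passed, with limma p = 0.396 for B2m before adjustment and 0.925 after it.

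For the peptide transporter and its loading partner the estimates lay near 0. Tap1, which forms the transporter with Tap2, ranged from 37.3 to 262 TPM in KO (median 169) and from 50.8 to 264 TPM in WT (median 149). Tap2 ranged from 30.6 to 141 TPM in KO (median 105) and from 53.3 to 143 TPM in WT (median 96.7). The differences in log2(TPM + 1) were 0.04 (SE 0.25) for Tap1 and -0.10 (SE 0.19) for Tap2, both smaller than their errors. Tapbp ranged from 93.3 to 414 TPM in KO (median 279) and from 94.6 to 495 TPM in WT (median 278), with a difference of -0.03 (SE 0.22). By experiment, the Tap1 difference was 0.41, 0.14 and 0.21 in experiments 1 to 3 and -0.60 in experiment 4.

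Psmb8, Psmb9 and Psmb10, the catalytic subunits of the immunoproteasome, also had overlapping genotypes. Psmb8 ranged from 25.9 to 173 TPM in KO (median 125) and from 44.8 to 227 TPM in WT (median 116), with a log2 difference of -0.11 (SE 0.30). Psmb9 ranged from 33.4 to 113 TPM in KO (median 66.9) and from 31.1 to 108 TPM in WT (median 58.3), with a log2 difference of 0.04 (SE 0.21). Psmb10 ranged from 15.7 to 63.2 TPM in KO (median 47.4) and from 17.2 to 93.6 TPM in WT (median 37.6), with a log2 difference of 0.03 (SE 0.25). All 3 estimates were below their standard errors.

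Nlrc5, the transactivator, had the estimate farthest from 0 among the 10 genes. Its mean was 172 ± 104 TPM in KO (SD, n = 10), and in WT it was 103 ± 52.9 TPM (SD, n = 11). In experiment 1, KO stood at 147 and 214 TPM and WT at 81.2, 107 and 124 TPM. In experiment 2, KO stood at 296, 294, 264 and 249 TPM and WT at 135, 163 and 214 TPM. Every KO library was thus above every WT library of the same experiment in experiments 1 and 2. KO and WT did not overlap there in 21.4% and 6.54% of all genes. The Shb mean was not lower in KO in experiment 1, and the part of Shb in the Nlrc5 levels was not tested. In experiment 3, Nlrc5 stood at 57.0 and 123 TPM in KO and at 65.8 and 64.7 TPM in WT. In experiment 4, KO stood at 41.6 and 39.6 TPM and WT at 58.8, 32.6 and 84.1 TPM. The groups overlapped in both of these, and the mean difference turned from 0.78, 0.71 and 0.36 log2 units in experiments 1 to 3 to -0.42 in experiment 4. Over all libraries the difference was 0.39 (SE 0.22, 95% interval -0.05 to 0.84), with limma p = 0.0811 before adjustment and 0.824 after it. An exact two-sided permutation of the genotype labels within experiments, over 21000 arrangements, gave p = 0.0665 for Nlrc5. This was the smallest exact permutation p of the 10 genes, the others running from 0.323 to 0.957, and it is not adjusted over the 10 genes. Without experiment 4 the limma difference was 0.64 (p = 0.00281 before adjustment, 0.570 after it), without experiment 2 it was 0.23, without experiment 1 it was 0.27, and without experiment 3 it was 0.40. In the scaling alternatives it remained positive, with a limma p under 0.05 before adjustment (common median, quantile normalization and TPM rescaled without the highest genes). In these, 995 of 13503, 1031 of 13503 and 1076 of 14078 genes had such a p. Over all alternatives the unadjusted limma p of Nlrc5 ran from 0.00281 to 0.711. Nlrc5 passed the adjusted threshold in none of 41 alternatives.

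**Figure D2:**
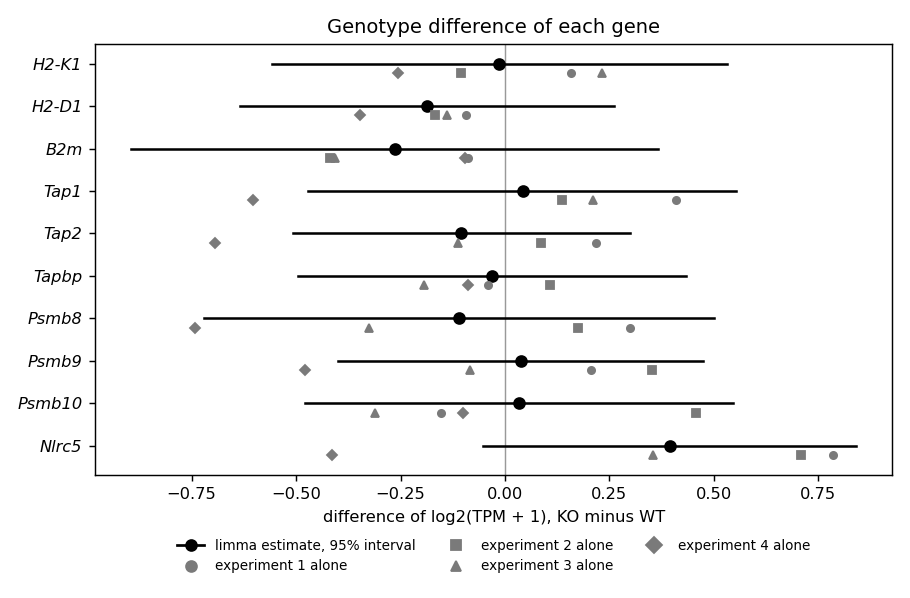
Difference of log2(TPM + 1), KO minus WT, for each gene: black points and bars are the limma estimate with its 95% interval over 21 libraries, and grey symbols below them are the mean difference within each experiment. Every interval crosses 0, and Nlrc5 lies farthest from it at 0.39 with experiment 4 on the other side.

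Within single experiments, KO and WT did not overlap in 6 of 40 pairs of a gene and an experiment, beside 19.6% of such pairs over all genes tested (21.4%, 6.54%, 29.9% and 20.7% of genes in experiments 1 to 4). The 6 pairs were Nlrc5 in experiments 1 and 2 (KO above WT), Tap1 in experiment 3 (KO above WT), and H2-D1, B2m and Psmb10 in experiment 3 (KO below WT). A limma F test of the genotype by experiment interaction was passed by 0 of the 10 genes, and 0.0% of all genes passed it. Before adjustment the interaction had a p under 0.05 for 0 of the 10 genes and for 3.84% of all genes. For Nlrc5 the interaction p was 0.180 before adjustment.

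The exchange of constitutive for immunoproteasome subunits was read as the log2 ratio of each immune subunit to the constitutive subunit it replaces, Psmb8 to Psmb5, Psmb9 to Psmb6 and Psmb10 to Psmb7, within each library. The ratios are of TPM + 1, so they depend on the scaling of a library where a gene is low. Psmb9 over Psmb6 ranged from -2.18 to 1.10 in KO (median -0.44, n = 10) and from -1.66 to -0.62 in WT (median -0.96, n = 11). In experiment 2 all 4 KO libraries, at -0.44 to 1.10, stood above all 3 WT libraries, at -0.92 to -0.62, while the genotypes overlapped in the other 3 experiments. Of all single genes, 6.54% did not overlap in experiment 2, and no such share was taken over ratios. The ratio was 0.57 higher in KO (SE 0.24), with an exact two-sided permutation p of 0.0314 and 0.0941 after Benjamini-Hochberg adjustment over the 3 ratios. It did not pass, and by experiment the difference was 0.52, 0.99, 0.61 and -0.01. Its adjusted p by the exact test was 0.00571 without KO replicate 1 of experiment 4 (difference 0.76) and 0.65 without experiment 2 (difference 0.36). Psmb6 itself stood at 91.1 ± 46.5 TPM in KO against 136 ± 58.3 TPM in WT (SD, n = 10 and 11), and its log2 difference of -0.53 (SE 0.22) had a limma adjusted p of 0.820.

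Psmb8 over Psmb5 differed by 0.55 between genotypes (SE 0.45, exact permutation p = 0.240 before and after adjustment). In KO replicate 3a of experiment 2 Psmb5 is listed at 0 TPM and the ratio read 5.91, and without that library the difference was 0.22. This ratio also had all KO libraries of experiment 2, at 1.98 to 5.91, above its WT libraries, at 1.15 to 1.90. The genotypes overlapped in the other experiments. Psmb10 over Psmb7 differed by 0.35 (SE 0.28, exact permutation p = 0.231, adjusted p = 0.240). The Psmb8 ratio was above 0 in 10 of 10 KO and 10 of 11 WT libraries. The Psmb9 ratio was above 0 in 2 of 10 KO and 0 of 11 WT libraries, so Psmb9 was mostly below Psmb6 in level per length. The Psmb10 ratio was above 0 in 1 KO and 1 WT library.

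**Figure D3:**
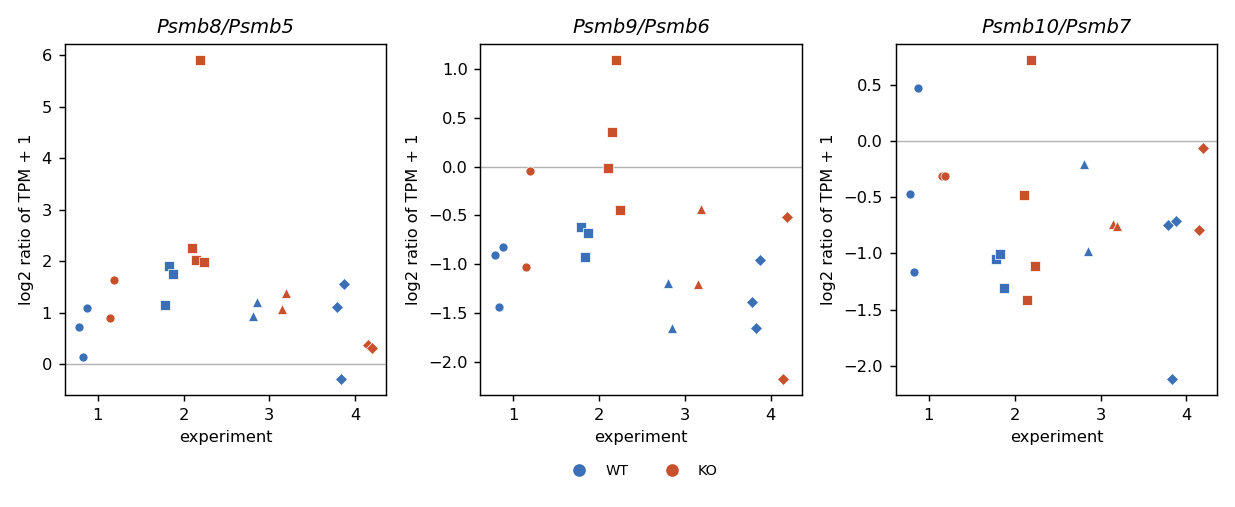
Log2 ratio of TPM + 1 of each immunoproteasome subunit to its constitutive counterpart, by experiment, with one point a library (WT in blue, KO in orange, the grey line at equal levels). The point at 5.91 in the Psmb8 to Psmb5 panel is KO replicate 3a of experiment 2, in which Psmb5 is listed at 0. In the Psmb8 to Psmb5 and the Psmb9 to Psmb6 panels all KO points of experiment 2 lie above its WT points.

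Levels of most of the 10 genes differed between the experiments. An F test over the 4 experiments beside the genotype was passed by 8 of the 10 genes, with 29.1% of all genes passing. Psmb8 (adjusted p = 0.153) and Psmb9 (adjusted p = 0.0715) did not pass in limma. B2m (adjusted p = 0.00344), Psmb10 (adjusted p = 0.0205) and Nlrc5 (adjusted p = 0.00029) passed in limma in 32 of 33 alternatives each, the exception being the fit without experiment 2. Tapbp passed in 28 of 33, Tap1 in 19, H2-K1 in 11, H2-D1 in 7 and Tap2 in 6. Leaving out any 1 library gave 4 to 9 of the 10 genes passing, beside 17.4% to 37.6% of all genes. Of these 21 fits, 13 gave 5 or fewer of the 10 genes. Without experiment 2, 0 of the 10 genes passed, and 0.0333% of genes did.

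Experiment 2 combined low B2m with high Nlrc5. In experiment 2, B2m stood at 1878, 1373 and 686 TPM in WT and 1582, 1294, 492 and 663 TPM in KO. In experiment 1 it stood at 5595, 3245 and 2589 TPM in WT and 3419 and 3368 TPM in KO. In experiment 3 the values were 4831 and 7384 TPM in WT and 4627 and 4380 TPM in KO. Every library of experiment 2 was below every library of experiments 1 and 3. In experiment 4 the values were 4485, 1395 and 3275 TPM in WT and 5504 and 1191 TPM in KO, and 2 of these, both among the libraries lowest in Pecam1, lay inside the range of experiment 2. The means were 1138 ± 528 TPM in experiment 2 (SD, n = 7), 3643 ± 1141 in experiment 1 (n = 5), 5305 ± 1398 in experiment 3 (n = 4) and 3170 ± 1888 in experiment 4 (n = 5).

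Each experiment was then set against the mean of the others, a contrast chosen after the values were seen. B2m was lower in experiment 2 (log2 difference -1.80, SE 0.32, limma adjusted p = 0.000623), and so was Psmb10 (log2 difference -0.91, SE 0.26, limma adjusted p = 0.0158). These 2 of 10 genes stand beside 6.65% of all genes called lower. Nlrc5 was higher (log2 difference 1.46, SE 0.23, limma adjusted p = 0.000169), 1 of 10 genes beside 15.0% of all genes called higher. Nlrc5 averaged 231 ± 62.7 TPM in experiment 2 (SD, n = 7), 134 ± 50.4 in experiment 1 (n = 5), 77.6 ± 30.4 in experiment 3 (n = 4) and 51.3 ± 20.7 in experiment 4 (n = 5). H2-K1, with a log2 difference of 0.02 (SE 0.28), did not follow B2m, and it stood above B2m by 0.30 ± 0.46 log2 units in experiment 2 (SD, n = 7) while the mean log2 ratio of H2-K1 to B2m was -0.84, -1.97 and -1.82 in experiments 1, 3 and 4. The ratio of Nlrc5 to B2m within a library had log2 means of -2.20 ± 0.85 in experiment 2, -4.78 ± 0.81 in experiment 1, -6.11 ± 0.70 in experiment 3 and -5.75 ± 0.86 in experiment 4.

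Other features of experiment 2 moved with these values. Ribosomal protein genes took 0.986% to 1.67% of the TPM in its 7 libraries and 2.51% to 6.48% in the other 14. The median of Malat1, a nuclear noncoding RNA, was 20248 TPM in experiment 2 and 7156 TPM elsewhere. Across 13429 genes with an annotated exon length, the contrast of experiment 2 and that length had a Spearman rho of 0.326, a description across genes that are not independent and share the same libraries. The median contrast was -0.24 in the 3359 genes of up to 2483 exon bases and 0.53 in the 3356 genes of 6519 bases or more. B2m has 860 exon bases, Psmb10 1705 and Nlrc5 8493. The part of these features in the levels of B2m, Psmb10 and Nlrc5 was not tested.

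**Figure D4:**
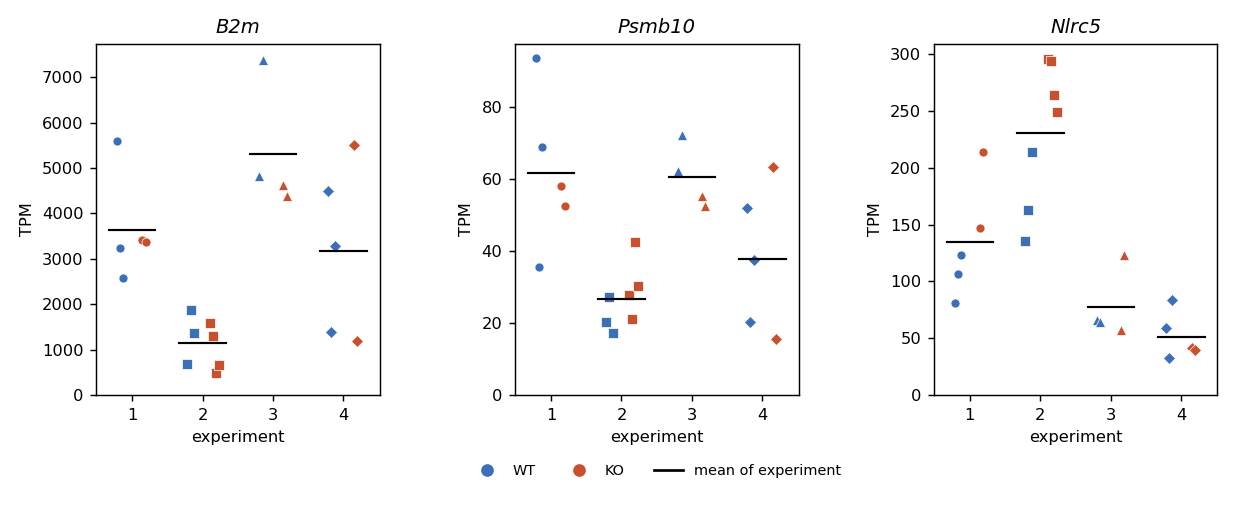
TPM of B2m, Psmb10 and Nlrc5 in each library by experiment (WT in blue, KO in orange, black bars the mean of an experiment). Experiment 2 has the lowest mean of B2m (1138 TPM) and of Psmb10 (26.6 TPM) and the highest of Nlrc5 (231 TPM).

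In experiment 4, 6 of the 10 genes were lower than in the other experiments in the same contrast (H2-K1, Tap1, Tap2, Tapbp, Psmb9 and Nlrc5), beside 28.3% of all genes called lower, and 0 were higher (0.474%). In experiments 1 and 3 none of the 10 genes was called, beside 0.00741% of genes lower and 0.0296% higher in experiment 1 and 0.0% and 0.148% in experiment 3. For experiment 4 the log2 differences of the 6 genes ran from -1.35 for Nlrc5 (SE 0.25, limma adjusted p = 0.00916) to -0.66 for Psmb9 (SE 0.25, limma adjusted p = 0.0473). Experiment 4 holds 2 of the 3 libraries lowest in Pecam1. Mitochondrial genes took 23.01% and 17.7% of the TPM in these 2, against a median of 5.50% over all 21 libraries, and the 20 highest genes took 38.5% to 71.1% in the 5 libraries of experiment 4, against a median of 31.0%. The 10 tumour epithelium markers summed to 71.1 to 272 TPM in the 3 libraries lowest in Pecam1 and to 0 to 144 TPM (median 3.51) in the other 18. Krt8, the 1 of these markers that passed the filter, reached 269 TPM in WT and so made up most of the highest sum. Epcam, Krt18 and Krt19 reached 1.25, 2.02 and 4.31 TPM in WT. In KO, Krt8, Krt19, Krt18 and Epcam reached 69.4, 27.9, 23.7 and 16.0 TPM. The part of these features in the levels of the 10 genes was not tested. KO replicate 2 of experiment 4 had the lowest value of the 21 libraries for 6 genes, and WT replicate 2 of experiment 4 for 3. With all 3 low libraries left out, 0 of the 10 genes were lower in experiment 4 (0.261% of all genes) and 0 higher (0.0536%). B2m, Psmb10 and H2-D1 were then lower in experiment 2 (8.34% of all genes) and Nlrc5 higher (14.4% of all genes), with limma adjusted p = 0.0000888, 0.00272, 0.0244 and 0.000192.

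**Figure D5:**
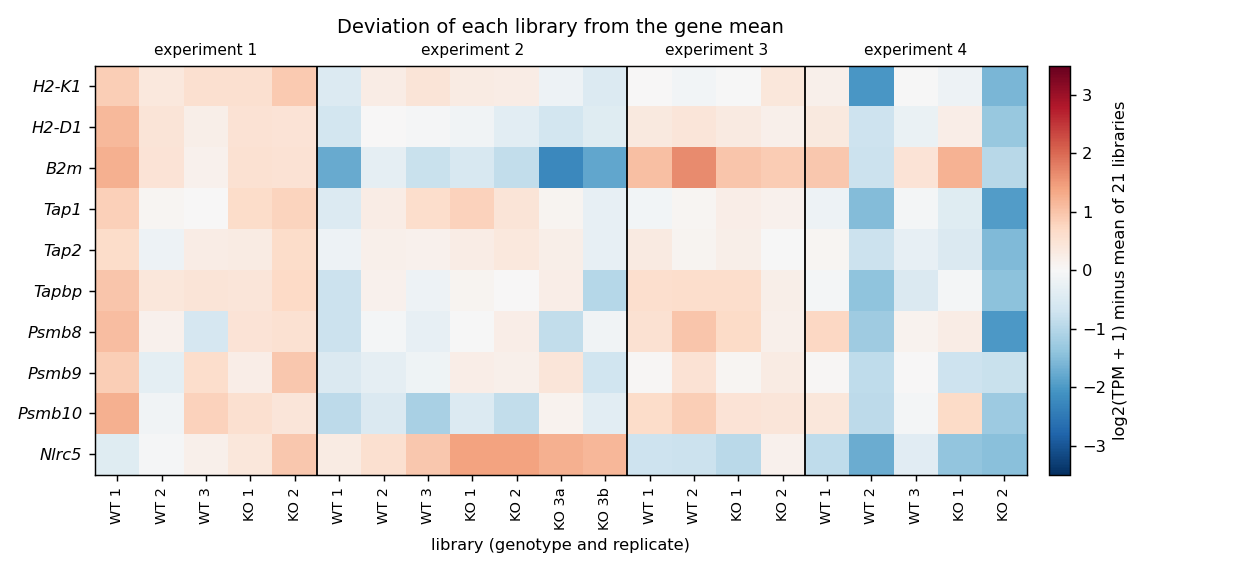
Deviation of log2(TPM + 1) from the mean of each gene over 21 libraries, libraries in columns by experiment (red above, blue below). Both replicates 2 of experiment 4 are blue for nearly all genes, and the experiment 2 columns are blue for B2m and red for Nlrc5.

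Within experiments the 10 genes varied together from library to library. With the experiment means removed, Pearson's r of log2(TPM + 1) between 2 of the genes was positive in all 45 pairs (median 0.649, from 0.0495 to 0.912, over 21 libraries that share their scaling and their endothelial content). H2-D1 and Psmb8 had the highest r, 0.912. Nlrc5 was the least like the others, with a median r of 0.233 to the other 9 genes, while the medians of the others ran from 0.529 to 0.798. Without the 3 libraries lowest in Pecam1, 40 of 45 pairs were positive, the median over pairs was 0.516 and that of Nlrc5 was -0.05 (n = 18). These are descriptions, no test was made, and no share of positive pairs was taken over other genes.

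The 8 genes outside the 10 whose profile was most like the mean of the 10 standardised genes, by Pearson's r over 21 libraries with the experiment means removed, were H2-T22 (r = 0.967), Gnai2 (0.954), Kctd17 (0.937), Nrarp (0.936), Tlr3 (0.936), Lamp2 (0.935), Pea15a (0.931) and Cd38 (0.930). H2-T22 is itself a nonclassical class I heavy chain. Without the 3 libraries lowest in Pecam1 their r ran from 0.848 to 0.933 (n = 18). Between genotypes their limma adjusted p ran from 0.932 to 0.997, and H2-T22 stood at 130 ± 44.6 TPM in KO against 133 ± 66.6 TPM in WT (SD, n = 10 and 11).

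The wider class I pathway gave 0 calls between genotypes in limma. Of 25 other class I heavy chains 14 were tested, 8 with higher and 6 with lower estimates in KO (median 0.03, against -0.11 over all genes). The highest by mean log2(TPM + 1) were H2-Q7, at 438 ± 192 TPM in KO against 389 ± 176 TPM in WT (SD, n = 10 and 11), and H2-Q4, at 330 ± 115 and 288 ± 108 TPM. Fcgrt, the neonatal Fc receptor heavy chain, had the smallest unadjusted p of the list (0.223). In the F test between experiments 8 of the 14 passed, beside 29.1% of all genes.

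Chaperones and peptidases of the loading pathway had lower estimates in KO in 14 of 15 genes (median -0.23), beside 64.0% of all genes, with 0 of 15 under an unadjusted p of 0.05. Calr, a chaperone of heavy chains, stood at 459 ± 242 TPM in KO against 536 ± 183 TPM in WT (SD, n = 10 and 11), and Hspa5, an endoplasmic reticulum chaperone, at 440 ± 206 and 436 ± 101 TPM. Among 23 genes of the proteasome core and its regulators, 21 had lower estimates (median -0.36), beside 64.0% of all genes, and 4 reached an unadjusted p under 0.05, beside 5.88%, all lower in KO: Psmg3, Psmb6, Psmg2 and Psmb1, the last named after its values were seen. Of these, Psmb6 and Psmb1 are core subunits and Psmg2 and Psmg3 are assembly chaperones. Psmb1 stood at 69.2 ± 42.9 TPM in KO and 95.3 ± 37.2 TPM in WT (log2 difference -0.51, SE 0.24, limma adjusted p = 0.820). In experiment 2, 13 of the 23 were lower than in the other experiments and 1 was higher, beside 6.65% and 15.0% of all genes.

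Regulators of class I transcription had 13 higher and 7 lower estimates among 20 genes (median 0.06), where 64.0% of all genes had lower estimates. Of the 20 genes 1 (5.0%) had an unadjusted p under 0.05 in limma, near the 5.88% of all genes. It was Ciita, the class II transactivator and a relative of Nlrc5, at 3.33 ± 2.35 TPM in KO against 6.40 ± 3.72 TPM in WT (SD, n = 10 and 11). Its log2 difference was -0.91 (SE 0.36, limma p = 0.0187 before adjustment and 0.820 after it). Irf1, an interferon regulatory factor, was abundant, at 602 ± 297 TPM in KO and 487 ± 265 TPM in WT. Stat2, a component of the type I interferon complex, averaged 114 ± 50.2 TPM in KO and 71.3 ± 30.5 TPM in WT (log2 difference 0.52, SE 0.27, limma adjusted p = 0.820). Of 13 interferon receptor and signalling genes 11 were tested, 6 with higher and 5 with lower estimates (median 0.03).

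Among 12 class II presentation genes 8 were tested and 0 passed. All 8 had lower estimates in KO (median -1.65), 7 of them with an unadjusted p under 0.05, beside 5.88% of all genes. Cd74, the invariant chain, stood at 83.0 ± 58.6 TPM in KO against 371 ± 557 TPM in WT (SD, n = 10 and 11), and H2-Aa at 20.9 ± 13.2 and 121 ± 195 TPM. The medians were 58.6 and 195 TPM for Cd74 and 15.9 and 61.3 TPM for H2-Aa. WT replicate 2 of experiment 3 held the highest value of both (2002 and 699 TPM), and without it the WT means were 208 ± 141 and 62.9 ± 39.2 TPM (SD, n = 10). The leukocyte markers moved the same way (17 of 17 lower estimates, median -1.45), and their part in the class II levels was not tested. The estimates of the 10 class I genes lay between -0.26 and 0.39, and the difference between these lists was not tested.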

How the data were processed

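RNA of CD31-sorted tumour cells was measured in 21 libraries (11 WT, 10 KO). The authors deposited TPM per gene for 45706 genes. Libraries were made from 30 ng total RNA with a stranded, ribosomal RNA depleted kit and paired reads of 150 bases, per the labels' protocols. The build is GRCm38 according to the submitters' processing notes. Aligner and counter: not given in the sources used here. Depth cannot be read from TPM, so no counting interval is given, and because TPM has a fixed sum, an abundant transcript reduces the values of all others.

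Decimal commas were converted, and gene names that had the form of dates were restored from their identifiers. Libraries were grouped by column name. The 2 columns with the same header entered as KO libraries of experiment 2. No column names KO replicate 3 of experiment 4, so placing either there, or leaving both out, were alternatives. The 13503 genes that reached 1 TPM in 10 or more libraries were tested on log2(TPM + 1), which understates the change of low genes, with limma 3.58.1 (R 4.3.3, statmod 1.5.0), trended robust prior, experiment as a term and Benjamini-Hochberg adjustment over all genes. Single values and ratios were tested by exact two-sided permutation within experiments. The limma fit was tested on simulated data with independent noise and planted changes far larger than the estimates of the 10 genes. It therefore does not say how often differences of their size would be found. The members and lists were chosen with earlier results of these data known. Named beside the 10 genes are Shb, Pecam1 and Ptprc as checks, and the 8 genes most alike. From each list come up to 3 genes with the smallest p and the 2 most abundant. Malat1, Psmb5, Psmb1 and H2-Q1 were named after their values were seen, and Epcam, Krt18 and Krt19 stand outside this rule. Annotation was GENCODE M21 and promoters RefSeq.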

Additional observations from a re-analysis of the deposited data

Results flagged for a closer look

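The log2 ratio of Psmb8 to Psmb5 in KO replicate 3a of experiment 2 was 5.91, far from the next highest KO library, both among all 10 KO libraries and among the 4 KO libraries of experiment 2. Psmb5 is listed at 0 TPM there, while Psmb8 stood at 59.0 TPM in the same library. Of 26 groups of 4 to 10 samples looked at over the 10 genes and 3 ratios, these 2 stood apart, and chance flags about 1 in 20 groups.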

How the results depend on the processing

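None of the 10 genes passed between genotypes in any of 41 alternatives, nor in the interaction in any of 29. Estimates of H2-D1, B2m and Nlrc5 kept their sign in all 41, and the sign of the other 7 changed as follows. H2-K1 moved most with the leukocyte marker mean as covariate, to -0.41 (limma p = 0.129 before adjustment, 0.715 after it). With libraries at a common median, which moved the median over all genes from -0.11 to -0.0063, H2-K1 read 0.094, Tap2 0.0026 and Tapbp 0.076. Quantile normalization gave Tapbp 0.038, and TPM rescaled without the highest genes gave H2-K1 0.052 and Tapbp 0.033. With the leukocyte marker mean as covariate Tap1 read -0.21, Psmb9 -0.042 and Psmb10 -0.028, and with the endothelial mean Tap1 read -0.039 and Psmb10 -0.019. Without an experiment term Psmb10 read -0.057. Placing KO 3a or 3b in experiment 4 gave 0.058 for H2-K1, 0.016 for Tapbp and -0.0022 for Psmb10. Leaving both out gave H2-K1 0.076, Tapbp 0.0097 and Psmb10 -0.086. Without experiment 1, Tap1 read -0.071 and Psmb9 -0.015. Without experiment 2, H2-K1 read 0.033, Tap1 -0.0063, Psmb9 -0.12 and Psmb10 -0.18. Without experiment 3, Tapbp read 0.0074. Without experiment 4, H2-K1 read 0.061, Tap2 0.076 and Psmb8 0.085. Leaving out 1 library at a time gave -0.15 to 0.12 for H2-K1, -0.051 to 0.23 for Tap1, -0.16 to 0.036 for Tap2, -0.14 to 0.083 for Tapbp, -0.23 to 0.13 for Psmb8, -0.044 to 0.097 for Psmb9 and -0.11 to 0.20 for Psmb10. The cause was not tested.

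The number of genes past the threshold between genotypes, 1 in the fit reported, was 2 with a common median, quantile normalization or rescaled TPM, and 0 without experiment 1 or without experiment 2. Of the 10 genes, the number past the F test between experiments, 8, beside 29.1% of all genes, was 5 with a pseudocount of 0.1 (23.6%), 5 with a common median (18.5%), 4 with quantile normalization (20.6%), 3 with rescaled TPM (20.4%), 4 with KO 3a placed in experiment 4 (17.3%) and 3 without the libraries lowest in Pecam1 (14.2%). It was 3 without experiment 1 (29.6%), 0 without experiment 2 (0.0333%) and 5 without experiment 4 (13.3%), and 4 to 9 when 1 library was left out (17.4% to 37.6%). The Psmb9 to Psmb6 ratio passed with KO 3b placed in experiment 4 (0.67, adjusted exact permutation p = 0.0394) and without experiment 4 (0.75, adjusted exact permutation p = 0.0214), and its difference ran from 0.46 to 0.76 when 1 library was left out.

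Same-numbered KO and WT libraries of an experiment had deviations correlated at -0.2 to 0.356, with 2 of 10 pairs above 0.1. Both of these pairs were in experiment 4 (0.316 and 0.356). Of 10 KO libraries, 3 correlated best with their own number. Deviations were taken from the mean of a genotype in an experiment, so with 2 libraries they mirror each other. The r therefore cannot decide whether same-numbered samples were paired. With a replicate block 0 genes passed, and H2-K1 read 0.061. Depth is unknown for TPM, so the limits of low genes cannot be given.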
